A study of Mus musculus with 6 samples.

Results

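The genes examined here are those of fibroblast growth factor (FGF) signalling in lumbar spinal cord of mouse embryos labelled wild type or knockout for Tnc, which encodes tenascin-C. They were chosen by gene symbol, with earlier results of these data known. The set holds every Fgf gene and the receptors Fgfr1 to Fgfr4 and Fgfrl1. It also holds feedback targets and adaptors (the Sprouty genes Spry1, Spry2 and Spry4, Spred1 to Spred3, Dusp6, Etv1, Etv5, Il17rd, Frs2 and Frs3). Of the whole set, 38 genes had a row with a clear gene symbol among the 19938 genes measured. They comprise 22 genes of the ligand family, 5 receptors and 11 targets and adaptors. Frs2 was not analysed here.

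FGF ligands bind receptor tyrosine kinases together with heparan sulfate, and the docking adaptors Frs2 and Frs3 pass the signal to the Ras and ERK kinase cascade. ERK activity switches on the ETS factors Etv1 and Etv5 and a set of inhibitors, among them Sprouty and Spred proteins, the ERK phosphatase Dusp6 and the membrane inhibitor Il17rd (also known as Sef), so that transcripts of these genes are widely used as a readout of pathway activity. In the embryonic spinal cord FGF signalling acts on ventricular progenitors, and Fgfr3 marks progenitors and early astrocytes.

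The 6 samples were lumbar cord of E15.5 embryos of strain SV129, 3 of wild-type genotype and 3 Tnc -/-, each called a biological replicate by the labels and each run on 1 whole-transcript array. Tenascin-C is an extracellular matrix glycoprotein of radial glia and early astrocytes. Nothing in the labels states which part of Tnc was removed, the litters, or whether a sample pools embryos, so p values measure the spread between these samples only. Values are log2 signals made by the authors with RMA, and the number of arrays limits their precision. Signals of different genes come from different probes, so the order of their levels is not an order of RNA amounts. In whole tissue, fewer cells of a type and less RNA per cell cannot be told apart.

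Markers of the labelled tissue were present. All 5 lumbar Hox genes listed, all 5 neuronal markers and all 5 radial glial markers lay above 6.13. Below that level lie the means of 95% of 1194 olfactory and vomeronasal receptor genes, which act in the nose, and it is used here as a background guide. Of 5 astrocyte markers, 4 lay above it, and Gfap, the filament of mature astrocytes, lay below at a mean of 5.95. Also above it were 4 of 5 meningeal, 5 of 5 endothelial and 2 of 4 microglial markers. So were 3 of 3 measured dorsal root ganglion, 3 of 5 skeletal muscle and 2 of 4 cartilage markers. The cartilage markers above it were Col2a1 and Sox9, and Sox9 is also among the radial glial markers. Acan and Matn1 lay below it. Of all genes 73.7% lay above the guide, so a marker above it does not by itself show its cell type. Tnc itself read 10.72, 10.22 and 10.02 in wild type and 9.64, 9.76 and 9.47 in knockout, without overlap. The knockout signal was 61.8% of wild type and stayed well above the background guide, so it does not show that the transcript is absent. Its log2 difference was -0.69 (standard error 0.17), with an exact two-sided permutation p of 0.1, the smallest that 3 arrays against 3 allow, and a limma adjusted p of 1. Y-linked signal was present in knockout replicates 1 and 3 and in none of the other 4 arrays, so sex differs between the groups along with Tnc. Of the 38 members, Fgf13 and Fgf16 lie on X, 0 on Y and 0 on chromosome 4, which carries Tnc.

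Across the FGF genes, levels in knockout stayed close to those in wild type. The differences (knockout minus wild type, log2) ran from -0.26 for Fgf15 to 0.20 for Fgf10, with 20 members higher and 18 lower and a median of 0.01, beside a median of -0.01 over all genes. The median size of the difference was 0.04 against 0.05 over all genes, and the median spread within a group was a standard deviation of 0.11 against 0.12. By limma with Benjamini-Hochberg adjustment over all 19938 genes, 0 of 38 members passed an adjusted p of 0.05, where the share of all genes was 0%. An unadjusted p under 0.05 was also reached by 0 members, where it was reached by 1.7% of all genes (0.933% higher and 0.767% lower). The 3 knockout values lay wholly to one side of the 3 wild-type values for 2 members, Fgf10 and Fgf2, or 5.26% of the 38, against 5.82% of all genes. Both were higher in knockout, a direction seen without overlap in 3.18% of all genes, and 0 members were lower without overlap, beside 2.64% of all genes. A share this near the background is no result about FGF genes.

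The intervals set bounds on the size of any change. The 95% interval of the difference lay within 0.5 log2 units of 0 for 36 of the 38 members, the exceptions being Fgf15 (from -0.65 to 0.13) and Fgf17 (from -0.51 to 0.25), and within 1 log2 unit for all 38. Over all genes the share with an interval inside 0.5 was 95%, near the 94.7% of the members. These intervals are not adjusted for the number of genes, and a p above the threshold does not show equal expression.

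**Figure D1:**
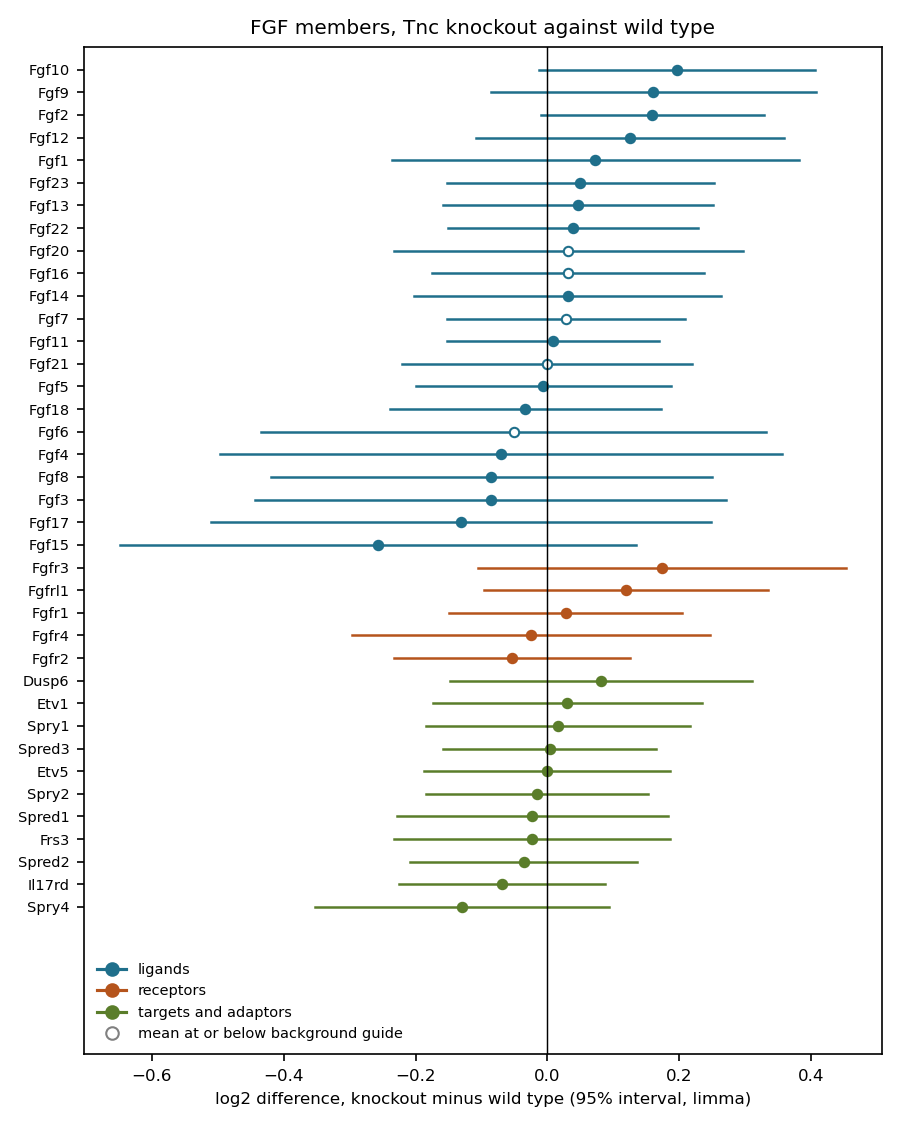
Log2 difference between Tnc knockout and wild type (points) with the 95% interval from limma (lines, n = 3 arrays per group) for all 38 FGF genes, ordered within ligands, receptors, and targets and adaptors. Every interval includes 0, from Fgf15 at -0.26 to Fgf10 at 0.20, and open points mark the 5 ligands with a mean at or below the background guide.

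By role, the 22 ligand genes had 13 higher and 9 lower members and a median difference of 0.03, the 5 receptors had 3 higher and 2 lower and a median of 0.03, and the 11 targets and adaptors had 4 higher and 7 lower and a median of -0.02. The 3 medians lay within 0.05 of each other. None of the 3 kept its sign when each array was left out in turn. The ligand median ran from -0.03 when wild-type replicate 1 was omitted to 0.09 when wild-type replicate 3 was, and the receptor median from -0.02 to 0.10 for the same arrays. The target median ran from -0.04 (without knockout replicate 2) to 0.02 (without knockout replicate 3). Of the single members, 12 of 38 (31.6%) kept their sign with every array left out, 7 of them higher and 5 lower in knockout, beside 40.1% of all genes. Of the 22 ligand genes, the 4 that stay inside the cell (Fgf11 to Fgf14) were all higher in knockout. The 18 secreted ligands had 9 higher and 9 lower members and a median of 0.01.

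**Figure D2:**
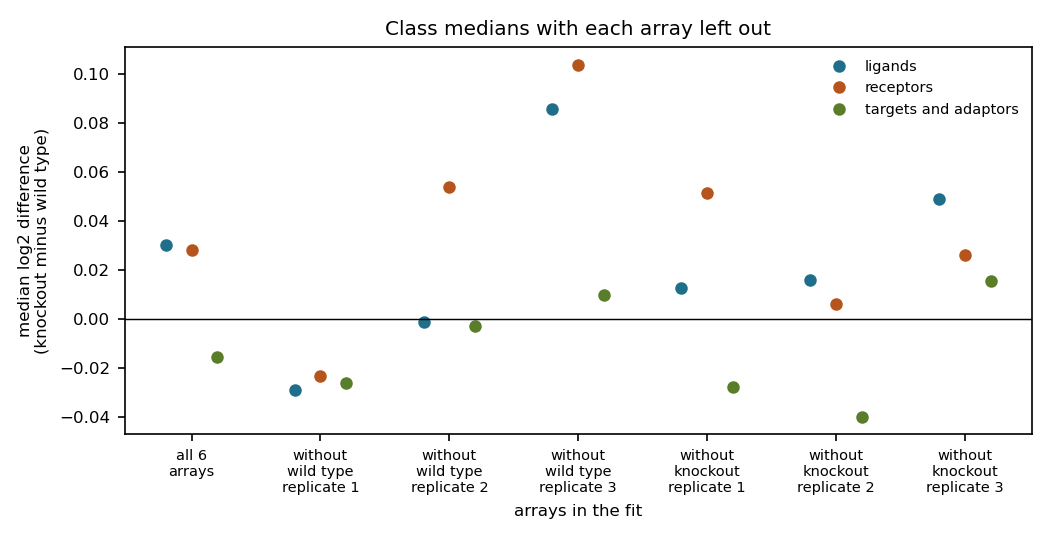
Median log2 difference (knockout minus wild type) over 22 ligands, 5 receptors and 11 targets and adaptors, with all 6 arrays and with each array left out. Ligands and receptors fall below 0 without wild-type replicate 1 and rise to 0.09 and 0.10 without wild-type replicate 3.

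Among the ligands, Fgf10, a mesenchymal factor that acts on epithelia through a splice form of Fgfr2, read 7.59, 7.78 and 7.88 in wild type and 7.90, 7.997 and 7.95 in knockout. All knockout arrays were higher, but the gap between the groups was only 0.02. The difference was 0.20 (standard error 0.09, 95% interval from -0.01 to 0.41), with an unadjusted limma p of 0.0620, an adjusted p of 1 and an exact permutation p of 0.1. It ran from 0.12 without wild-type replicate 1 to 0.26 without wild-type replicate 3, and median centring of the arrays closed the gap. The means of 5 meningeal and fibroblast markers ran from 7.51 to 7.76 in wild type and from 7.37 to 7.67 in knockout, with 1 of 5 higher in knockout, and their part in the value of Fgf10 was not tested.

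Fgf2, a ligand without a signal peptide that is a classical mitogen for neural progenitors in culture, read 6.48, 6.35 and 6.38 in wild type and 6.52, 6.55 and 6.61 in knockout. The groups were apart by 0.04, at levels close to the background guide of 6.13. The difference was 0.16 (standard error 0.07, interval from -0.01 to 0.33, unadjusted limma p 0.0622, adjusted p 1), and it ran from 0.13 to 0.20 with single arrays left out. Renewed quantile normalization over all 19938 genes ended the separation of Fgf2 and of Fgf10.

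Fgf15, the mouse counterpart of the endocrine factor FGF19 and a gene of ventricular progenitors in the embryonic neural tube, had the widest range of the 38 genes over the 6 arrays. It read 9.35, 9.93 and 9.54 in wild type and 9.42, 9.08 and 9.55 in knockout, so that wild-type replicate 2 and knockout replicate 2 stood at the ends and the other 4 arrays lay together. The difference of -0.26 (standard error 0.17, interval from -0.65 to 0.13) was -0.09 when wild-type replicate 2 was omitted and -0.12 when knockout replicate 2 was. It was -0.39 when wild-type replicate 1 was omitted and -0.36 when knockout replicate 3 was. With array weights, which favour the replicates numbered 2, it was -0.56 (unadjusted limma p 0.00518). A fit with a sex term rests on knockout replicate 2 alone against wild type and gave -0.52 (unadjusted limma p 0.0475). Fgf15 lies directly beside Fgf4, and Fgf4 beside Fgf3, in gene order on chromosome 7. Fgf4 and Fgf3 did not share its pattern, since both were highest in wild-type replicate 3.

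Fgf9, a secreted factor first known as glia-activating factor, read 8.13, 8.46 and 8.42 in wild type and 8.52, 8.58 and 8.40 in knockout. Wild-type replicate 1 stood apart below the other 5 arrays, and the groups overlapped. The difference of 0.16 (standard error 0.11) became 0.05 without that array. Fgf18, of the Fgf8 subfamily, read 9.53, 9.62 and 9.60 in wild type and 9.62, 9.64 and 9.39 in knockout, a difference of -0.03 with an interval from -0.24 to 0.17. Fgf22, which promotes the formation of presynaptic terminals, differed by 0.04 (7.39, 7.495 and 7.54 against 7.59, 7.41 and 7.55). In both genes the groups overlapped.

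**Figure D3:**
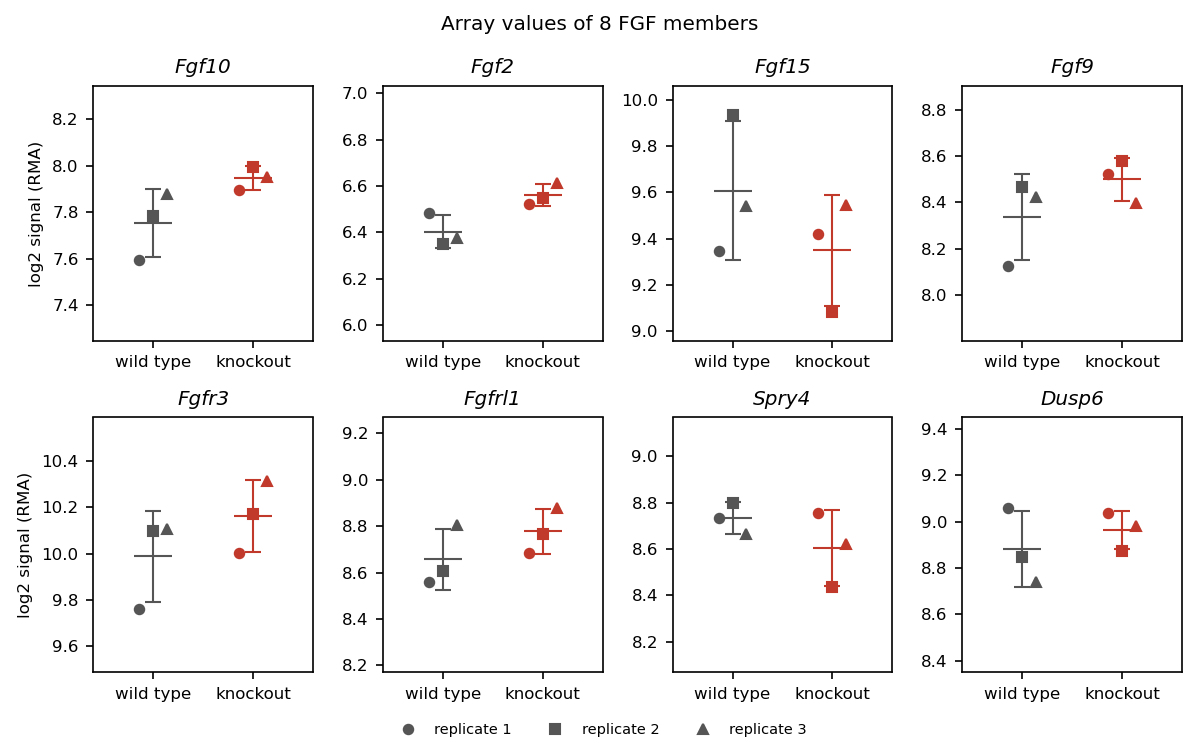
Log2 signal of 8 FGF genes in each array (circle, square and triangle for replicates 1, 2 and 3), with group mean and standard deviation (n = 3). Fgf10 and Fgf2 have no overlap between groups, with gaps of 0.02 and 0.04, and the groups of the other 6 genes overlap. All panels span the same log2 range.

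The family members Fgf11 to Fgf14 stay inside the cell, bind voltage-gated sodium channels and do not act as receptor ligands in the usual sense. All 4 lay above the background guide. Fgf12 read 9.88, 9.75 and 9.62 in wild type and 9.95, 9.96 and 9.72 in knockout, and its difference was 0.13 (interval from -0.11 to 0.36). Fgf13 read 11.19, 10.96 and 10.91 against 11.07, 11.08 and 11.04, a difference of 0.05. Fgf14 read 10.54, 10.31 and 10.28 against 10.51, 10.46 and 10.26, a difference of 0.03. Fgf11 stayed within 0.12 over all 6 arrays and differed by 0.01. The groups overlapped for each of these genes, and only Fgf12 kept its sign with every array left out.

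The other secreted ligands were Fgf1, Fgf3, Fgf4, Fgf5, Fgf6, Fgf7, Fgf8, Fgf16, Fgf17, Fgf20, Fgf21 and Fgf23. Of these, 5 (Fgf6, Fgf7, Fgf16, Fgf20 and Fgf21) had means between 5.38 and 6.08, at or below the background guide, where a signal cannot be told from that of receptor genes of the nose. Fgf8, a patterning factor of embryonic organisers, read 7.61, 7.66 and 8.14 in wild type and 7.62, 7.69 and 7.85 in knockout. Fgf17, its close relative, read 6.40, 6.71 and 7.09 against 6.47, 6.61 and 6.73. Wild-type replicate 3 was the highest array in both, and without it their differences went from -0.08 to 0.08 and from -0.13 to 0.05. Fgf1 read 6.92, 7.06 and 7.47 against 7.25, 7.24 and 7.19, a difference of 0.07 that became 0.23 without wild-type replicate 3. Fgf3 read 6.35, 6.33 and 6.93 against 6.42, 6.42 and 6.50, and Fgf4 read 5.98, 6.29 and 6.77 against 6.13, 6.25 and 6.44. Their differences of -0.09 and -0.07 became 0.11 and 0.14 without that array. Fgf5 and Fgf23, the latter a hormone of phosphate balance made in bone, differed by -0.01 and 0.05, and Fgf6, Fgf7, Fgf16, Fgf20 and Fgf21 by between -0.05 and 0.03.

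Many secreted ligands shared an order over the arrays that cut across genotype. Of the 18 secreted ligands, 11 were highest in wild-type replicate 3 and 12 were lowest in wild-type replicate 1. Both held for 9 genes (Fgf1, Fgf4, Fgf5, Fgf6, Fgf8, Fgf17, Fgf20, Fgf21 and Fgf23), and for 14.5% of all genes and 17.9% of the olfactory and vomeronasal receptor genes. The olfactory and vomeronasal receptor genes leaned to the same arrays, 47.6% of them being highest in wild-type replicate 3, beside 31.1% of all genes, and 34.6% being lowest in wild-type replicate 1, beside 29% of all genes. Over the secreted ligands the mean deviation from a gene's own mean was -0.16 in wild-type replicate 1 and 0.17 in wild-type replicate 3, while the knockout arrays lay between -0.01 and 0.03. The mean over the 4 intracellular members was 0.09 and -0.11 in those 2 wild-type arrays, with Fgf12, Fgf13 and Fgf14 on the other side from the secreted ligands and Fgf11 within 0.02 of its mean in both. The standard deviation was larger in wild type than in knockout for 15 of 18 secreted ligands and for 29 of all 38 members, where it was larger for 67.8% of all genes.

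**Figure D4:**
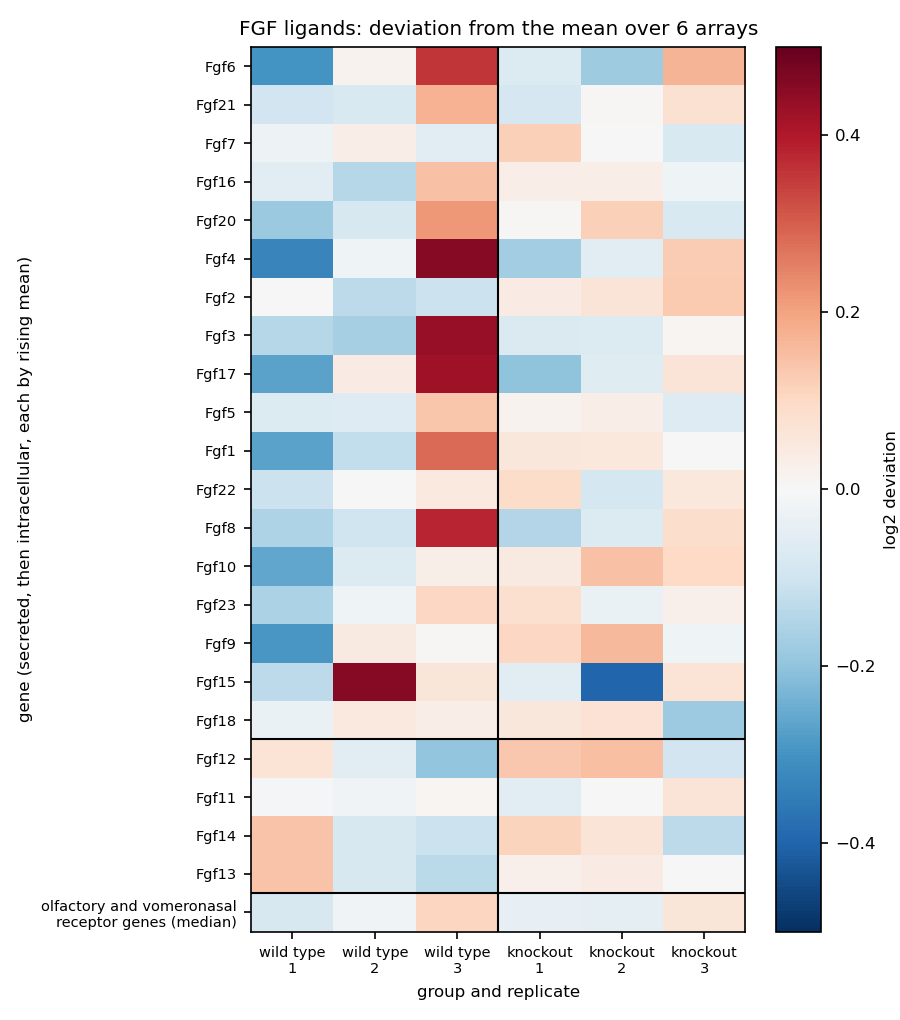
Deviation of each array from the gene's mean over 6 arrays (log2, colour) for 18 secreted and 4 intracellular FGF genes, each set ordered by mean level, with the median deviation of 1194 olfactory and vomeronasal receptor genes in the bottom row. Wild-type replicate 3 is the highest array for 11 of the 18 secreted genes, and Fgf15 instead has its extremes in wild-type replicate 2 and knockout replicate 2.

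Among the receptors, Fgfr3 read 9.76, 10.10 and 10.11 in wild type and 10.004, 10.17 and 10.31 in knockout. The groups overlapped, wild-type replicate 1 being the lowest array and knockout replicate 3 the highest. Its difference was 0.17 (interval from -0.10 to 0.45) and lay between 0.06 and 0.25 with single arrays left out. The mean of 5 astrocyte markers ran from 8.914 to 8.951 in wild type and from 8.954 to 9.003 in knockout. Its groups did not overlap, by a narrow margin, and 2 of 5 members were higher. The mean of 5 radial glial markers ran from 11.56 to 11.73 in wild type and from 11.62 to 11.71 in knockout. Its groups overlapped, with 4 of 5 markers higher. The mean of 5 oligodendrocyte precursor markers ran from 8.63 to 8.77 in wild type and from 8.83 to 8.92 in knockout. Its groups did not overlap either, and 5 of 5 markers were higher. Among single genes the share without overlap was 5.82%, which is not a background rate for means of 5 markers. The mean of 5 endothelial markers ran from 8.66 to 8.86 and from 8.82 to 9.07, with 5 of 5 higher. The part of these lists in the value of Fgfr3 was not tested. The genes whose 6 array values lay closest to those of Fgfr3 were Ildr2 (Pearson's r = 0.997, difference 0.26), Sac3d1 (0.11) and 9230112D13Rik (0.09), and 77 of 19938 genes had r over 0.95. The mean of 9230112D13Rik, 4.54, lay below the background guide.

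Fgfr1, the receptor found in both progenitors and neurons, varied least of the receptors. It read 11.00, 11.15 and 11.15 in wild type and 11.08, 11.17 and 11.13 in knockout. The difference was 0.03 (standard error 0.08, interval from -0.15 to 0.20). Fgfr2 read 9.45, 9.63 and 9.53 against 9.41, 9.51 and 9.53, a difference of -0.05 with an interval from -0.23 to 0.13. Fgfr4 read 6.98, 6.997 and 7.38 against 7.01, 7.08 and 7.19, a difference of -0.02 that became 0.10 without wild-type replicate 3. Fgfrl1, a receptor without a tyrosine kinase domain, read 8.56, 8.61 and 8.81 against 8.69, 8.77 and 8.88, a difference of 0.12 (interval from -0.10 to 0.34) with overlapping groups. It was higher with each array left out, by between 0.07 and 0.20. Wild-type replicate 1 was the lowest array for 4 of the 5 receptors, the exception being Fgfr2, and the standard deviation was larger in wild type for all 5.

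The Sprouty genes are inhibitors induced by ERK activity. Spry1 and Spry2 differed by no more than 0.02 in either direction, and Spry4 had the largest difference of the 11 targets and adaptors. Spry1 read 8.75, 8.87 and 8.98 in wild type and 8.98, 8.82 and 8.85 in knockout, a difference of 0.02. Spry2 stayed within 0.11 over all 6 arrays, the narrowest range of the 38 genes (8.38, 8.44 and 8.49 against 8.37, 8.49 and 8.39), and differed by -0.02 with an interval from -0.18 to 0.15. Spry4 read 8.74, 8.80 and 8.67 against 8.76, 8.44 and 8.62, so that knockout replicate 2 alone stood well below the rest. Its difference of -0.13 (standard error 0.10) became -0.04 without that array, and was -0.30 (unadjusted limma p 0.0436) with the sex term, which rests on that array. Spry1 lies near Fgf2 on chromosome 3 and Spry4 near Fgf1 on chromosome 18, with 2 coding genes between in each case, and neither pair varied in the same order over the arrays.

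The Spred proteins restrain Ras and Raf in a related way. Spred1 read 10.11, 9.98 and 9.90 in wild type and 10.01, 10.05 and 9.86 in knockout, a difference of -0.02. Spred2 read 10.70, 10.73 and 10.57 against 10.65, 10.64 and 10.60, a difference of -0.04, and Spred3 stayed within 0.12 over the 6 arrays and differed by 0.00. Over the 6 Sprouty and Spred genes, with the brightest row of each, the largest upper bound of an interval was 0.22. The lowest lower bound was -0.35, that of Spry4.

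Dusp6, the phosphatase that inactivates ERK, read 9.06, 8.85 and 8.74 in wild type and 9.04, 8.88 and 8.98 in knockout, with overlapping groups. Its difference of 0.08 (interval from -0.15 to 0.31) was 0.17 when wild-type replicate 1 was left out, 0.01 when wild-type replicate 3 was, and -0.01 with the sex term. The ETS factor Etv1 read 9.72, 9.61 and 9.62 against 9.60, 9.83 and 9.60, a difference of 0.03, with knockout replicate 2 above the rest. Etv5 read 8.80, 8.83 and 8.66 against 8.76, 8.84 and 8.69, and its difference was -0.00 with an interval from -0.19 to 0.19. Il17rd read 8.19, 8.19 and 8.14 against 8.14, 8.06 and 8.11. It differed by -0.07 (interval from -0.22 to 0.09) and was lower with each array left out, by amounts between -0.05 and -0.09. Its groups overlapped by less than 0.01 as deposited and came apart under median centring and renewed quantile normalization. The adaptor Frs3, which links receptors to Ras, differed by -0.02 (10.31, 10.48 and 10.61 against 10.45, 10.40 and 10.47). Over these 11 targets and adaptors, with the brightest row of each gene, the intervals reached at most 0.31 upward and -0.35 downward.

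A second transcript cluster was present for 4 targets and did not always give the same sign. For Il17rd it differed by 0.03 where the brighter cluster differed by -0.07, for Spred2 by 0.08 against -0.04, for Etv5 by 0.07 against -0.00 and for Etv1 by 0.01 against 0.03. The intervals of all 8 clusters include 0. Those of the second clusters were wider, from -0.35 to 0.40 for Il17rd and from -0.32 to 0.34 for Etv1. They ran from -0.20 to 0.37 for Spred2 and from -0.15 to 0.29 for Etv5.

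Of 39 further pathway genes (co-receptors, FGF binding proteins, adaptors, kinases of the Ras and ERK cascade, and other ERK-induced genes), 33 were measured, 22 of them higher and 11 lower with a median of 0.02. By limma, 0 passed over all genes and 0 had an unadjusted p under 0.05. The smallest unadjusted p were those of Flrt2, a membrane protein of a family that binds FGF receptors, at 0.17 (p 0.0536) and of Spry3, a Sprouty gene on X, at -0.13 (p 0.132). Flrt2 read 10.21, 10.15 and 10.26 in wild type and 10.33, 10.34 and 10.46 in knockout. Spry3 read 10.21, 10.17 and 10.06 against 10.05, 10.06 and 9.94. The groups did not overlap for these genes and for the adaptor Grb2 (0.08), or 3 of 33 (9.09%) against 5.82% of all genes.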

How the data were processed

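RNA of 6 lumbar cord samples was hybridised to arrays, 3 per group. The authors deposited log2 values made with RMA, per the submitters' processing notes (no version given). RMA makes signal distributions alike between arrays, so a global shift between groups would be largely removed. Array medians of the deposited values still ran from 6.96 to 7.10. The table holds 35557 transcript clusters, of which 21789 had exactly 1 gene symbol in the platform annotation, 1621 had several and 12147 were not listed. Symbols were updated through a RefSeq table of GRCm38.p6, where 19856 of 19938 genes matched. The cluster with the highest mean over 6 arrays stood for a gene. No genome build is named, so only chromosomes and gene order are given. No filter on dim genes was applied.

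Groups were compared with limma 3.58.1 in R 4.3.3 (lmFit and eBayes, group as the only term, two-sided, Benjamini-Hochberg over all genes, threshold 0.05), tested on simulated data. Named were all members, and of the further pathway list those with an unadjusted p under 0.05 or else the 2 of smallest p, plus Grb2, chosen after its values were seen. Members and lists were chosen with earlier results of these data known. Alternatives were each array omitted in turn, a block for the replicate number, a filter at the background guide, an intensity trend, array weights, median centring, renewed quantile normalization, the mean of a gene's clusters and a sex term. Counts of members without overlap under these settings were added after seeing the data. Figures were drawn with matplotlib 3.10.9.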

Additional observations from a re-analysis of the deposited data

How the results depend on the processing

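Under each alternative run, 0 of the FGF members passed over all genes. Over all genes 0 passed as well, except 4 without knockout replicate 2 (range 0 to 4), and 339 had an unadjusted p under 0.05. The number of FGF genes whose groups do not overlap ran from 2 to 11 with an array left out, where fewer arrays separate more genes (11.0% to 23.5% of all genes), and was 1 (Il17rd) with renewed quantile normalization. With the ligand median between -0.03 and 0.09, the receptor median between -0.02 and 0.10 and the target median between -0.04 and 0.0155 with single arrays left out, no class has a settled direction. The difference of Tnc lay between -0.84 and -0.49. An unadjusted p under 0.05 was reached by Fgf2 without wild-type replicate 1 (3.33% of all genes reached it there), by Fgf1 and Fgf10 without wild-type replicate 3 (6.91%), by Fgf15 and Spry4 with a sex term (1.01%), and by 5 members with array weights (10.5%). Replicate numbers are shared between the groups, and same-numbered arrays deviated together with correlations of 0.35, -0.07 and 0.45. Replicates 1 and 3 correlated best with their own number and replicate 2 did not. The labels state no pairing, and these values do not settle whether the numbers pair the arrays. With the replicate number as a block, 0 genes and 0 members passed, Fgf10 had an unadjusted p of 0.0429 (3.19% of all genes lay under 0.05) and the differences were unchanged. Not every array correlated best with its own number. Of 527 values of single members under alternatives, 7 moved by at least the spread between replicates. These were Etv1, Fgf22, Il17rd, Spry2 and Spry4 with the sex term, Fgf15 with array weights, and Il17rd with the mean of its clusters. The number of arrays limits what can be detected, and the 5 ligands at or below the guide carry a signal not told from background.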
